A study of Rattus norvegicus with 6 samples.

Results

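The genes described here are 5 regulators and markers of fat cells: *Pparg* (ENSRNOG00000008839), *Cebpa* (ENSRNOG00000010918), *Lpl* (ENSRNOG00000012181), *Fabp4* (ENSRNOG00000010805) and *Adipoq* (ENSRNOG00000001821). They were taken as a list of gene IDs that names them as fat cell genes, with no threshold on their values, out of 32883 IDs in the count table. The list was drawn up with earlier results of these data known. Messenger RNA was sequenced from primary rat BMSCs, stromal cells of the bone marrow that grow attached to the dish and can form bone, fat and cartilage cells. Both groups grew in α-MEM with 10% serum. The Hypoxia group (3 libraries) spent 7 days at 1% O2 in a tri-gas incubator. The Control group (3 libraries) was kept under conditions that the labels call normal, without an oxygen percentage or a number of days. The labels give no animal strain, sex or age, no passage number, and no adipogenic inducer. They do not say whether the libraries of a group came from separate rats or cultures, so the tests measure only the spread between these libraries, which may be technical.

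Fat cells arise from marrow stromal cells through a cascade of transcription factors. *Pparg* encodes the nuclear receptor PPARγ, which is required for the fat cell fate, and *Cebpa* encodes C/EBPα, a leucine zipper factor. These factors raise each other's expression and together switch on genes of the fat cell. Those genes include *Lpl*, a secreted lipase that frees fatty acids from circulating triglycerides, *Fabp4*, a cytoplasmic carrier of fatty acids, and *Adipoq*, which encodes the hormone adiponectin. In marrow, fat and bone cells share a stromal precursor. *Lpl* is also made by muscle cells and macrophages, and *Fabp4* by macrophages and capillary endothelium.

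At 1% O2, *Cebpa* transcripts fell by 37.0% and *Lpl* transcripts fell by 31.7%. *Pparg* was sequenced at a low level in both groups, with no difference past the test. Of the fat cell genes other than the regulators, *Lpl* was readily measured in all 6 libraries. *Fabp4* and *Adipoq* were at or near the limit of detection. *Fabp4* had 2 to 8 reads per library, and *Adipoq* had 1 read in the whole data set. Of the 5 genes, 3 had enough reads to be tested, 2 of these were lower and 0 were higher at an adjusted p under 0.05 (edgeR). Over all 12702 genes tested, 45% passed this threshold and 21.9% passed it in the lower direction. The 2 falls are therefore 2 single measurements in a data set with many changed genes, and nothing is read from their number.

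**Figure D1:**
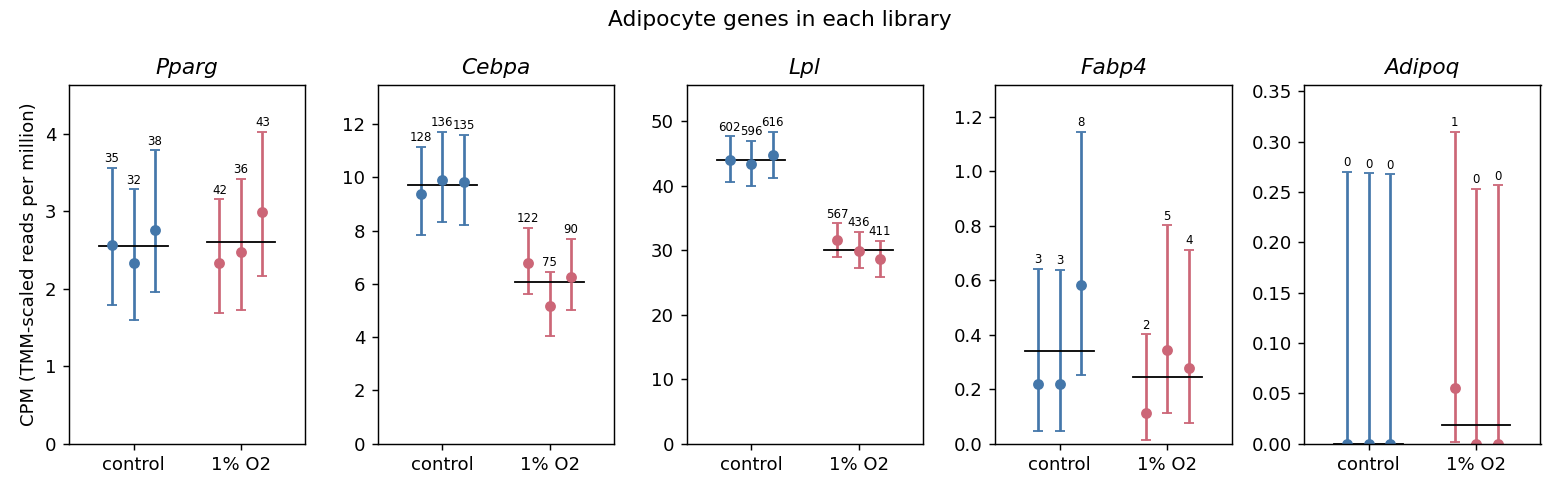
Level of each gene in each library, in CPM (reads per 1000000 after TMM scaling, linear axes that start at 0 and differ between panels); points are libraries in replicate order, bars are exact 95% Poisson intervals, horizontal lines are group means, and the digits are raw read counts. The groups are separate for *Cebpa* and *Lpl* and overlap for *Pparg*, *Fabp4* and *Adipoq*. Over all 12702 tested genes, the groups are separate for 55.5%, in either direction.

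The control libraries held 13273781 to 13361629 reads assigned to genes, and the 1% O2 libraries 14879124 to 18533675. Levels are given as CPM, the reads of a gene per 1000000 reads of its library, scaled by TMM, a factor per library that sets the typical gene to no change. Control replicate 2 stood apart from the other controls. Chi-square values averaged over genes were 6.48 and 6.57 when it was set against them. The value was 1.51 between Control replicates 1 and 3, and counting noise alone gives about 1. Between pairs of 1% O2 libraries the values were 2.23, 2.17 and 1.76. The changes and ratios of *Pparg*, *Cebpa*, *Lpl* and *Fabp4* are therefore also given without this library. Without it, 6017 genes were called in place of 5718, of which 2936 in place of 2786 were lower. Ranks among all genes and likeness to other genes were computed with all 6 libraries only. Nothing in the labels gives a batch for either group, and a batch that followed the groups cannot be told apart from oxygen. The same holds for time in culture, since no number of days is given for the controls. In bulk RNA, fewer cells of a type and less RNA per cell cannot be told apart either. Markers of stromal cells, muscle, macrophages and endothelium were not analysed here because the gene IDs are not paired with names. Their part in the values of *Lpl* and *Fabp4* was not tested. The RNA protocol names muscle as its material, although source and cell type are both given as BMSCs.

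The receptor gene *Pparg* had 35, 32 and 38 reads in the control libraries and 42, 36 and 43 at 1% O2. Its levels were 2.56, 2.33 and 2.76 CPM in controls and 2.34, 2.47 and 2.99 CPM at 1% O2. The groups overlapped throughout. The lowest library of each group had nearly the same level, and the highest value belonged to 1% O2 replicate 3. The means were 2.55 ± 0.22 and 2.60 ± 0.35 CPM (SD, n = 3 each). The log2 fold change was 0.019 ± 0.192 (SE; edgeR adjusted p = 0.951). Its 95% interval ran from -0.39 to 0.43, that is, from 0.761-fold to 1.35-fold. A change of *Pparg* within these bounds was not detectable at this depth. Counting error alone gives an SE of 0.19 for the 105 and 121 reads of the groups, so the number of reads sets this precision. The sign of the small difference turned without Control replicate 2 (-0.042), without 1% O2 replicate 3 (-0.086) and with library totals in place of TMM factors (-0.069), so no direction is given for *Pparg*.

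*Pparg* is transcribed from more than 1 promoter, and the longer protein form, PPARγ2, is made mainly in fat cells. The count table gives 1 number per gene, so the starts in use were not separated. The RefSeq promoter table (build GRCr8) holds 2 windows for the gene, whose starts lie 57714 bases apart. They are printed to show how unlike these starts are, each from 250 bases before to 50 bases after the start, on the + strand, 5′ to 3′. Capitals mark matches, on either strand, to the GC box GGGCGG (the type of site that SP1 binds, the factor named in the study's title), the TATA box TATAAA or the CCAAT box.
Pparg upstream start, chr4:150096808-150097107: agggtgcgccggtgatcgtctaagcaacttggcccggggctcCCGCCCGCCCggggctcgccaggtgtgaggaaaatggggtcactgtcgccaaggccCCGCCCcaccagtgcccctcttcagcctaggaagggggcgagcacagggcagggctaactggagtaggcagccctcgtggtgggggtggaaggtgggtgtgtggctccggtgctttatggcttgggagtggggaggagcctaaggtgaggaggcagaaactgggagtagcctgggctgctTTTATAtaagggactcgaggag
Pparg downstream start, chr4:150154522-150154821: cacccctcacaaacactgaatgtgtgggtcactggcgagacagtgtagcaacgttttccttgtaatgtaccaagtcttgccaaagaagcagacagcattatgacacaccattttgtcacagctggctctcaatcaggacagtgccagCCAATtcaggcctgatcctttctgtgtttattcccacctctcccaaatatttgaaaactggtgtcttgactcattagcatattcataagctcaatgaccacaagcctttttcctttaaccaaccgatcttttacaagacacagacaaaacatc

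The upstream *Pparg* window was 64.7% G or C with 14 CG dinucleotides, and the downstream window was 43.7% G or C with 3. Over all 33469 windows of the table, the median was 51.7% G or C and 7 CG dinucleotides. The upstream window holds 3 GC boxes on the opposite strand, at positions -208, -204 and -152 from the start, the first of which share bases. It also has 1 TATA match on the opposite strand at position 29. The downstream window holds 0 GC boxes and 1 CCAAT match at position -103. Of all windows, 33.1% hold a GC box, 14.2% a TATA match and 37.5% a CCAAT match. These are matches of letters and show no binding.

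*Cebpa* fell at 1% O2. It had 128, 136 and 135 reads in the control libraries and 122, 75 and 90 in the deeper 1% O2 libraries. Scaled to depth, its levels were 9.37, 9.90 and 9.80 CPM in controls and 6.79, 5.15 and 6.26 CPM at 1% O2. All 3 controls lay above all 1% O2 libraries, as for 55.5% of tested genes in either direction. The controls were close together, and the 1% O2 libraries were more spread, with replicate 2 the lowest. Chi-square per degree of freedom within the group was 0.11 in controls and 1.79 at 1% O2. The control value is below what counting noise alone gives on average, and the difference in spread was not tested. The means were 9.69 ± 0.28 and 6.07 ± 0.84 CPM (SD, n = 3 each). This was 1.59-fold lower, a log2 fold change of -0.67 ± 0.12 (SE; edgeR adjusted p = 0.000564). The 95% interval ran from -0.93 to -0.40. Counting error alone gives an SE of 0.11, so most of the uncertainty comes from the number of reads. Without Control replicate 2 the log2 fold change was -0.65. Leaving out each library in turn gave -0.76 to -0.57, with adjusted p-values by edgeR of at most 0.00368.

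The *Cebpa* promoter window is printed because this is the regulator that fell, with the same marks as for *Pparg*. It lies on the + strand of GRCr8.
Cebpa, chr1:96896334-96896633: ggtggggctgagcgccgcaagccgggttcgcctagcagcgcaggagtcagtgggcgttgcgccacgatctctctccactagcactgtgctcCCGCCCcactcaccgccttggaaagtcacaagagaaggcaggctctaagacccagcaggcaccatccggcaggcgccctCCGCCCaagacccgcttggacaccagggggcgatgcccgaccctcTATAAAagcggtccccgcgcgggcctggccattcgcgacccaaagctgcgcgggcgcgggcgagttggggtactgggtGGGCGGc

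The *Cebpa* window was 68.7% G or C with 28 CG dinucleotides, richer in both than either *Pparg* window. It holds a TATA match at position -35 on the gene's own strand. GC boxes stand at positions -159 and -80 on the opposite strand and at position 44 on the gene's own strand. The *Adipoq* window, also in the table, was 53.0% G or C with 3 CG dinucleotides, and holds 2 CCAAT matches, at positions -69 and -42, and 0 GC boxes. In none of these 4 windows were there matches to the core of hypoxia response elements (ACGTG, in 19.3% of all windows). The same held for the C/EBP palindrome TTGCGCAA (0.170%) and the AGGTCA half-site of nuclear receptors (16.2%). The direct repeat of this half-site with 1 base between (0.0538%), which dimers containing PPARγ bind, was also absent. This says only that these letters are not in these 300 bases, and elements lying further away were not searched.

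*Lpl*, the lipase gene, fell at 1% O2 and was the most precisely measured of the 5. It had 602, 596 and 616 reads in the control libraries and 567, 436 and 411 at 1% O2. Its levels were 44.1, 43.4 and 44.7 CPM in controls and 31.5, 29.9 and 28.6 CPM at 1% O2. The controls lay close together, and the highest 1% O2 library was well below the lowest control. Chi-square per degree of freedom was 0.14 in controls, less than counting noise alone gives on average, and 1.17 at 1% O2. Groups were likewise separate for 55.5% of all tested genes, in either direction. The means were 44.1 ± 0.7 and 30.0 ± 1.5 CPM (SD, n = 3 each). This was 1.47-fold lower, a log2 fold change of -0.55 ± 0.06 (SE; edgeR adjusted p = 8.65e-06). The 95% interval ran from -0.69 to -0.42. Without Control replicate 2 the log2 fold change was -0.56, and leaving out each library in turn gave -0.59 to -0.52. *Lpl* transcripts remained at a mean of 30.0 CPM at 1% O2, so the gene was not silent there.

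**Figure D2:**
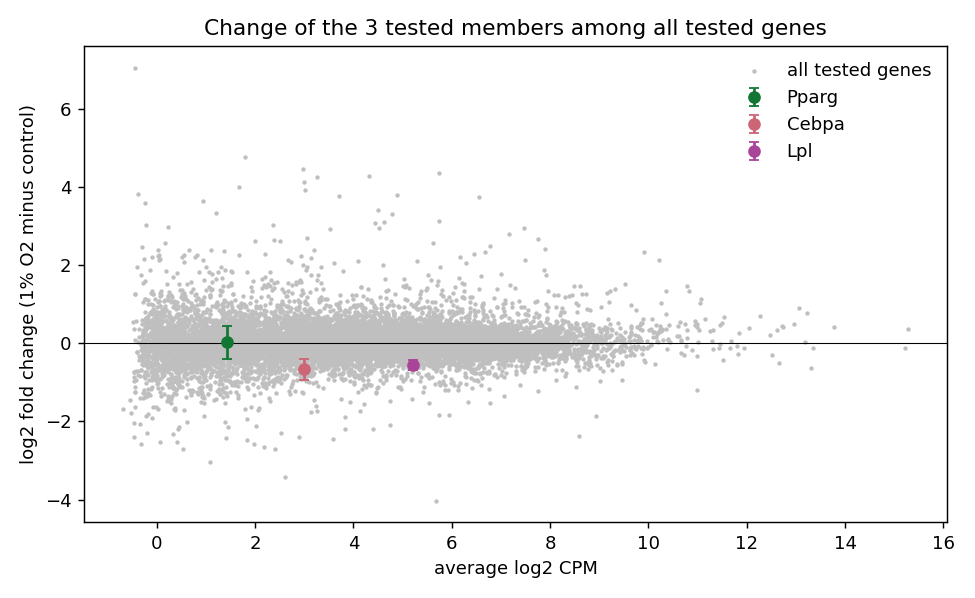
Log2 fold change (1% O2 minus control) against average log2 CPM for all 12702 tested genes (grey) and for *Pparg*, *Cebpa* and *Lpl* (coloured points, with 95% intervals from the edgeR fit). *Cebpa* at -0.67 and *Lpl* at -0.55 lie in the lower part of the cloud but inside it, and *Pparg* lies at 0.019.

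The falls of *Cebpa* and *Lpl* were larger than the median fall among genes called lower. Of all tested genes, 5.06% had a log2 fold change below that of *Cebpa* and 7.19% below that of *Lpl*. The median over the 2786 genes called lower was -0.36, and 20.7% of these fell further than *Cebpa* and 27.7% further than *Lpl*. These comparisons were not matched for depth, and a gene with fewer reads needs a larger fall to be called. For *Pparg*, 95.7% of tested genes had a larger difference in either direction. This rank rests on a difference of 0.019 ± 0.192 (SE), so it does not show that *Pparg* was steadier than other genes. Library totals in place of TMM factors shift all log2 fold changes by a median of -0.089. With them *Cebpa* was at -0.76 and *Lpl* at -0.64. The share of called genes that were higher moved from 51.3% of 5718 to 34.3% of 6071, so the background of falls depends on the scaling, while *Cebpa* and *Lpl* were called lower under both.

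Ratios between these genes within a library need no scaling factor. They were taken as the log2 of 1 gene's reads over the other's, with 0.5 reads added to each, for the 3 pairs of genes with at least 10 reads in every library. They are used for the change between groups and say nothing about which gene is expressed more, since gene length was not used. The *Pparg* to *Cebpa* ratio was -1.86, -2.07 and -1.82 in controls and -1.53, -1.05 and -1.06 at 1% O2. All 1% O2 libraries lay above all controls, and 1% O2 replicate 1 lay nearest to the controls. The mean difference was 0.70, a 1.63-fold rise of *Pparg* relative to *Cebpa* (exact two-sided permutation p = 0.1, adjusted over the 3 pairs 0.15). This p is the smallest that 3 libraries against 3 allow, so the test could not pass 0.05. The *Pparg* to *Lpl* ratio was -4.09, -4.20 and -4.00 in controls and -3.74, -3.58 and -3.24 at 1% O2, again without overlap. Its mean difference was 0.57 (exact permutation p = 0.1, adjusted 0.15). Without Control replicate 2 these differences were 0.62 and 0.52. Both ratios restate the falls of *Cebpa* and *Lpl* against *Pparg*, which had 32 to 43 reads per library. How often other gene pairs separate in this way was not computed.

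The *Cebpa* to *Lpl* ratio was -2.23, -2.13 and -2.19 in controls and -2.21, -2.53 and -2.18 at 1% O2. Apart from 1% O2 replicate 2, which had the lowest *Cebpa* level, the 1% O2 libraries lay within the range of the controls. The mean difference was -0.13 (exact permutation p = 0.5, adjusted 0.5), and without Control replicate 2 it was -0.10. With 3 libraries against 3, this test could not have shown unequal changes of *Cebpa* and *Lpl*, and the values do not show that they changed by the same amount.

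**Figure D3:**
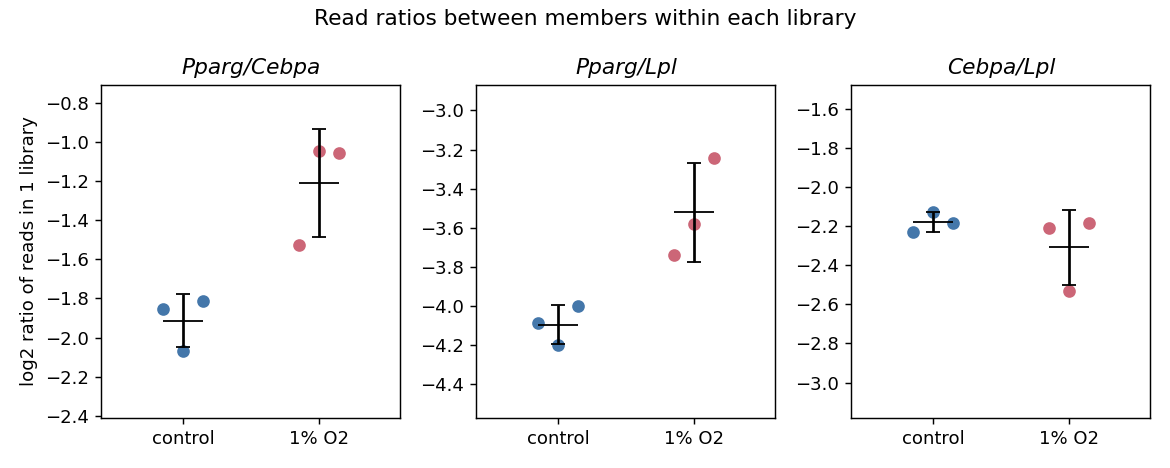
Log2 ratio of raw reads between pairs of genes in each library; points are libraries in replicate order, the horizontal mark is the group mean and the bar its SD (n = 3), and each panel spans the same range of log2 units. Ratios of *Pparg* to *Cebpa* and to *Lpl* were higher in all 3 libraries at 1% O2 than in all controls, whereas *Cebpa* to *Lpl* overlapped. How often other gene pairs separate was not computed.

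*Fabp4*, the fatty acid carrier, was barely detected. It had 3, 3 and 8 reads in the control libraries and 2, 5 and 4 at 1% O2, and the filter on low counts removed it before the test. These are 0.220, 0.218 and 0.581 CPM in controls and 0.111, 0.343 and 0.278 CPM at 1% O2. The groups overlapped, and Control replicate 3 alone held 8 of the 14 control reads. The summed rate at 1% O2 was 0.690 times that in controls, with an exact 95% interval of 0.283 to 1.63 that covers counting error only. Without Control replicate 3 the ratio was 1.07, and without Control replicate 2 it was 0.585. The depth thus allows no direction for *Fabp4*, and a summed level above 0.571 CPM in controls or 0.420 CPM at 1% O2 lies outside the counting intervals.

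*Adipoq*, the adiponectin gene, had 0 reads in all 3 controls, and 1, 0 and 0 reads at 1% O2. A count of 0 over the controls together allows up to 3 reads, which is 0.0729 CPM. The single read at 1% O2 corresponds to 0.0556 CPM in replicate 1. On the same basis for both groups, the exact 95% upper limit was 0.0896 CPM in controls and 0.119 CPM at 1% O2. The groups overlapped, and with neither above 3 reads no fold change is given. Transcripts of this hormone gene were therefore not detectable in controls, and the 1% O2 group holds a single read that does not tell it from the controls.

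By the likeness rule, the profile of *Lpl*, the member with the smallest adjusted p, was compared with 11352 tested genes of average log2 CPM of at least 1. The Pearson correlations of log2 CPM over the 6 libraries were highest for ENSRNOG00000017149 (r = 0.999) and ENSRNOG00000010775 (r = 0.998). The first went from 6.05 ± 0.09 to 2.93 ± 0.23 CPM and the second from 7.97 ± 0.84 to 1.23 ± 0.28 CPM (SD, n = 3 each), with log2 fold changes of -1.04 and -2.66. Both fell by more than *Lpl*. With 6 libraries in 2 groups that differ widely, 1699 genes reached a correlation above 0.9 with *Lpl*, so a high value describes little more than a fall at 1% O2. The files do not pair these IDs with names.

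**Figure D4:**
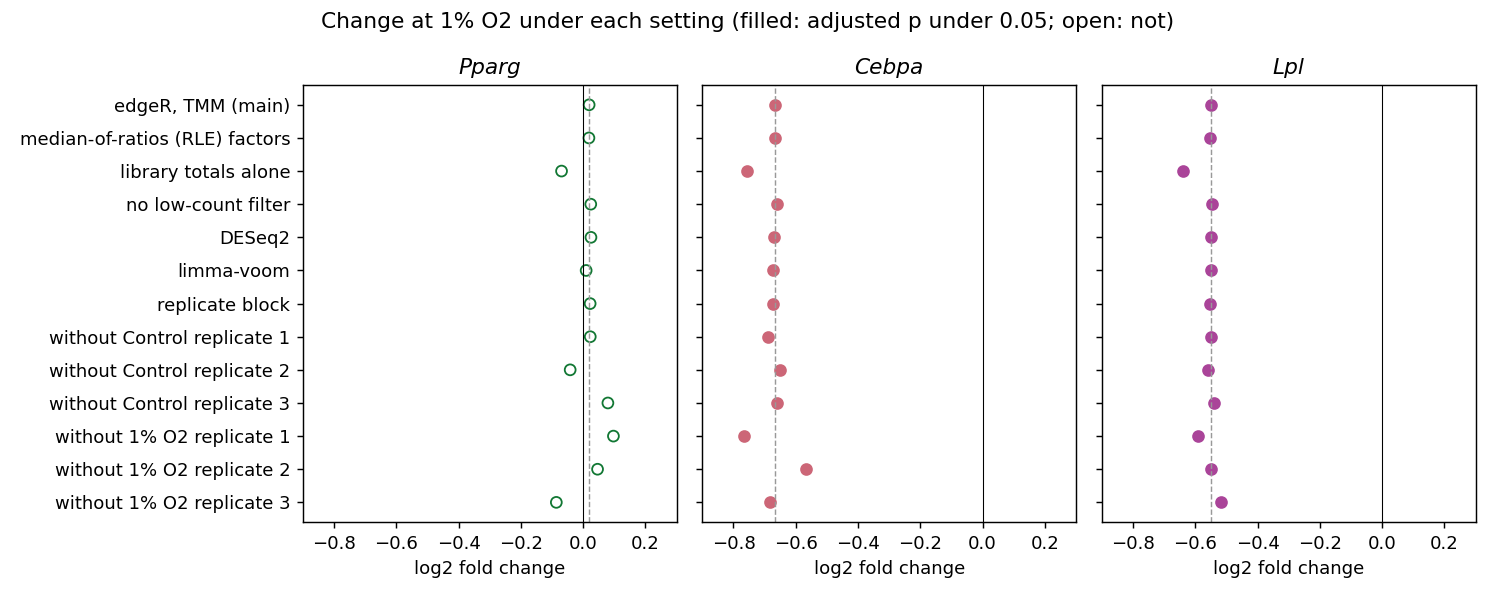
Log2 fold change (1% O2 minus control) of *Pparg*, *Cebpa* and *Lpl* under the main analysis and the 12 alternatives without a minimum fold. Filled points have an adjusted p under 0.05, open points do not, and the dashed line is the main value. *Cebpa* stayed between -0.76 and -0.57 and *Lpl* between -0.64 and -0.52, all filled, while *Pparg* ranged from -0.086 to 0.097, all open.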

How the data were processed

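The authors deposited a table of raw read counts per rat Ensembl gene ID, with 1 column per library. Per the submitters' processing notes, HISAT2, featureCounts and DESeq2 were used with build rn6. Versions, annotation release, the strand setting and the treatment of reads that map to several places were not given in the sources used here, so reads of overlapping, antisense or closely similar genes may be mixed. Per the labels' protocols, libraries came from a stranded mRNA kit. The reference lists 47357 genes with an Ensembl ID for 0 of them. Names of the 5 genes therefore come from the list of IDs that defined them and could not be checked against a table, and lists of other fat cell genes and of markers of other cell types were not run.

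Counts were fitted with edgeR 4.0.16 in R 4.3.3 (filterByExpr with minimum count 10 and minimum total 15, TMM factors, two-sided quasi-likelihood test, 4 residual degrees of freedom). Benjamini-Hochberg adjustment ran over the 12702 genes that passed the filter, and 0.05 was the threshold. The standard error is the absolute log2 fold change divided by the square root of F. The 95% interval of a log2 fold change uses the t distribution with the total degrees of freedom of the test. These add to the 4 residual ones those gained by sharing variance across genes. The 95% intervals of counts are exact Poisson intervals, and those of the *Fabp4* ratio are exact conditional binomial intervals; both cover counting error only. Genes most like a member were chosen by Pearson correlation with the called member of smallest adjusted p in each direction, on log2 CPM with a prior count of 2. As alternatives, the fit was repeated with library totals, median-of-ratios factors, no filter, DESeq2 1.42.0, limma-voom (limma 3.58.1), a replicate block, a minimum fold and leaving out each library. The genes and lists were chosen with earlier results of these data known.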

Additional observations from a re-analysis of the deposited data

How the results depend on the processing

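*Cebpa* and *Lpl* kept their direction and call under all 12 alternatives without a minimum fold, at -0.76 to -0.57 and -0.64 to -0.52. Their adjusted p-values by edgeR, DESeq2 or limma-voom were at most 0.00368 and 0.000198. *Pparg* passed the threshold under none of these alternatives, including edgeR, DESeq2 and limma-voom, and its sign turned with library totals (-0.069). Leaving out 1 library gave *Pparg* -0.086 to 0.097; the cause was not tested. With a minimum log2 fold change of 1, 599 genes were called in place of 5718 (360 higher, 239 lower), by construction, and *Cebpa* and *Lpl* were not among them. The other 12 alternatives gave 4406 to 6071 called genes. The replicate block, which treats equal replicate numbers as pairs, gave *Pparg* 0.023, *Cebpa* -0.67 and *Lpl* -0.55 and 5295 called genes, and changed no call of these 3. The labels state no pairing. Deviations of log2 CPM from the group mean correlated at -0.044, -0.051 and 0.0052 between control and 1% O2 libraries of equal number. Between libraries of unequal number the correlations were -0.014 to 0.051. Read ratios kept their signs without added reads and without any 1 library, at 0.62 to 0.86 for *Pparg* to *Cebpa*, 0.44 to 0.68 for *Pparg* to *Lpl* and -0.19 to -0.017 for *Cebpa* to *Lpl*. Leaving out 1 library, an alternative added after seeing the data, moved the *Fabp4* ratio between 0.545 and 1.07. Depth limits *Pparg*, *Fabp4* and *Adipoq*, which had at most 43, 8 and 1 reads in any library.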
